A study of Homo sapiens with 6 samples.

Results

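The genes described here encode the factors that start, carry forward and end protein synthesis on cytosolic ribosomes. They are the rows of the deposited tables whose symbol starts with EIF or EEF, together with ETF1, GSPT1, GSPT2 and ABCE1. The eIF2α kinases (EIF2AK), the eIF4E-binding proteins (EIF4EBP) and 2 pseudogenes were left out. This gave 67 of the 26255 genes in each file, of which 62 are annotated as protein-coding in RefSeq. The others are 5 antisense or readthrough transcripts.

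RNA-seq was carried out on 22RV1 cells, an established human CRPC line, kept in full medium with serum. The cells received 10 nM bruceantin (BCT) or its vehicle DMSO for 24 h, with 3 samples in each group. Both groups are the same line and share the same medium and time, and BCT is the only difference stated between them. The labels do not say whether the samples came from separate cultures, so the p-values measure the spread between these samples, which may be technical. A single line, dose and time point were profiled.

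Initiation begins when eIF2 carries the initiator tRNA to the small ribosomal subunit, with eIF1, eIF1A, eIF3 and eIF5 at its side. The eIF4 factors bind the mRNA cap, unwind the leader and bring the subunit to it, and eIF5B and eIF6 act where the subunits join. Afterwards eEF1A delivers each aminoacyl-tRNA, eEF2 moves the ribosome along and eIF5A eases the making of difficult peptide bonds. Bruceantin belongs to the quassinoids, plant compounds long known to block protein synthesis on the ribosome.

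Levels are given in FPKM, which scales the fragments of a gene to its transcript length and to the mapped reads of the sample, so levels of different genes can be compared per length. The files hold no counts, so it is not known here how many reads a value rests on. FPKM summed to 1169649 to 1572321 in the DMSO samples and to 757534 to 799838 in the BCT samples. The small RNA gene MIR6087 held 43.5% to 55.3% of the FPKM in the DMSO samples and 31.7% to 32.5% in the BCT samples, and no rescaling was applied to the values. The prostate luminal markers HOXB13, KRT8, KRT18, FOLH1 and KLK2 were above 0 in every sample. They summed to 739.0 to 746.8 FPKM with DMSO and to 1745 to 1931 FPKM with BCT. KRT8 (1.17) and KRT18 (1.72) carry this sum and were called higher, while KLK2 was called lower (-1.61) and HOXB13 was at -0.45, passing the FDR alone under the test given next. Of 5 markers of other cells, COL1A1 and ACTA2 were above 0 in every sample and called higher with BCT, and PTPRC, PECAM1 and DES averaged at most 0.025 FPKM. The 5 summed to 5.04 to 5.99 FPKM with DMSO and to 18.1 to 20.9 FPKM with BCT, and their part in the results was not tested.

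Fold changes are on log2(FPKM + 0.1), BCT against DMSO, which understates the change of low genes. They were tested with limma with Benjamini-Hochberg adjustment over the 12729 genes whose mean reached 1 FPKM. A gene was called when its absolute log2 fold change was above 0.85 and its FDR below 0.05. Of the 67 members, 59 reached that mean and were tested. After BCT, 8 of them were lower (EEF1A1, EEF1G, EEF2K, EEF2KMT, EIF2S3, EIF4B, EIF5A and EIF5AL1), where 17.8% of all tested genes were lower, and 7 were higher (EIF1, EIF1B, EIF5, EIF2B2, EIF2B4, EIF3G and EIF4A2), where 13.9% of all were higher. The 15 called members were 25.4% of those tested, against 31.6% of all genes tested. The FDR alone was passed by 50 members, or 84.7%, against 82.1% of all genes. Of these, 22 were lower and 28 higher, against 42.8% and 39.3% of all genes. In 54 members, or 91.5%, no BCT sample overlapped a DMSO sample, against 85.3% of all genes. BCT was the lower group in 24 of them and the higher in 30, against 44.3% and 41% of all genes. The median log2 fold change was 0.12 over the tested members and -0.038 over all genes.

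The calls depended on the scaling and on the fold threshold. When each sample was rescaled to the same FPKM sum, the median of all genes moved to 0.72, and limma called 0 members lower and 31 higher. The 31 are 52.5% of the tested members, against 49.4% of all tested genes called there (668 lower, 5614 higher). At an unadjusted p below 0.05, 2 members were lower there. The 8 genes called lower as deposited still had negative values, from -0.62 for EEF1A1 to -0.12 for EEF2KMT. Tested against the fold threshold itself with limma's treat, EEF1A1, EIF5A, EIF1, EIF2B2 and EIF2B4 remained. These 5 are 8.47% of the tested members, against 19.1% of all tested genes called with treat. In bulk RNA a lower level in every cell and a loss from some of the cells cannot be told apart, and FPKM gives no amount per cell.

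**Figure D1:**
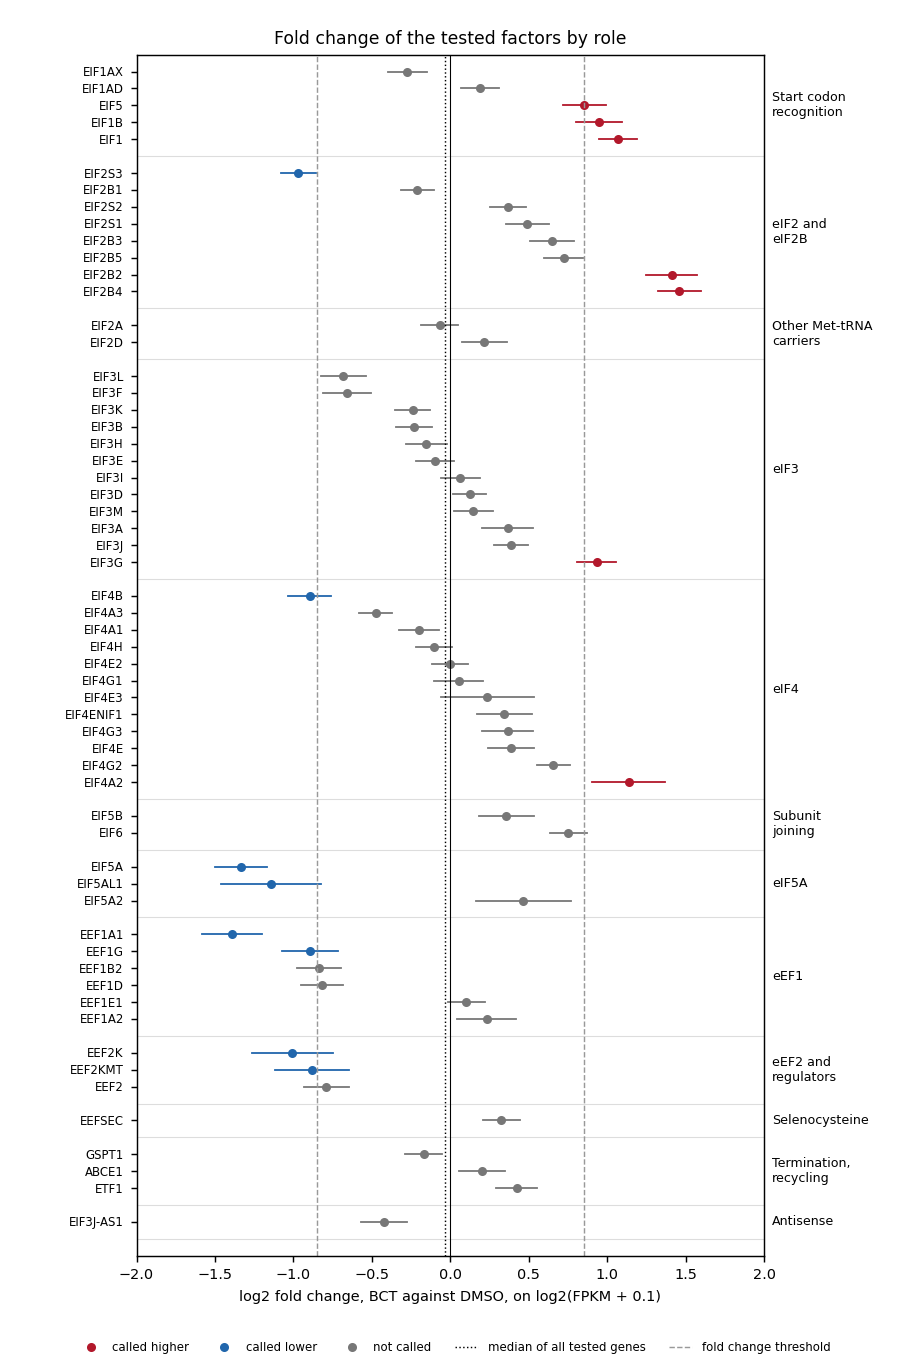
Log2 fold change of 58 tested factors (BCT against DMSO, on log2(FPKM + 0.1)), grouped by role, with the Y-linked EIF1AY left out. Points are limma estimates from 3 samples per group and bars their 95% intervals; the dashed lines mark the fold threshold of 0.85 and the dotted line the median of all tested genes, -0.038. The eEF1, eEF2 and eIF5A genes hold 6 of the 8 called lower, and the start codon and eIF2B genes 5 of the 7 called higher.

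Of the 10 coding genes of the elongation factors and their modifiers (EEF), all tested, 4 were called lower and 0 higher by limma (2 were higher at an unadjusted p below 0.05; 7 were lower and 2 higher at the FDR alone). The 4 are 40% of the group, against 31.6% of all tested genes called and 17.8% called lower. The group had a median log2 fold change of -0.83. EEF1A1, the main carrier of aminoacyl-tRNA to the ribosome, was the most abundant member in every sample. It measured 5810, 4743 and 5363 FPKM in the DMSO samples and 2112, 2039 and 1896 FPKM under BCT. Every BCT sample thus lay below every DMSO sample, and the mean fell 2.63-fold, from 5305 ± 536 to 2016 ± 110 FPKM (SD, n = 3 each). On the log2 scale it fell by 1.39 ± 0.084 (SE), with an adjusted p of 1.8e-06 by limma (Benjamini-Hochberg). EEF1A1 lies on chromosome 6 of GRCh37, from 74199031 to 74235310 in GENCODE, where exons of MTO1 overlap its own on the other strand. MTO1 went the other way, at 1.34. EEF1A1 made up 31.6% ± 1.33 of the summed FPKM of all members with DMSO and 17.1% ± 0.663 with BCT (SD, n = 3 each). Reads shared with its processed pseudogenes could move this value, since how the authors treated them is not given in the sources used here.

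The partners of eEF1A in nucleotide exchange lay mostly on the same side. EEF1G, the γ subunit, averaged 1948 ± 169 FPKM with DMSO and 1047 ± 62.9 FPKM with BCT (SD, n = 3 each) and was called lower at -0.89. That call rests on DMSO replicate 1, as the value was -0.849 without it. EEF1B2 and EEF1D, the subunits that carry the exchange activity, stood just short of the fold threshold at -0.84 and -0.82, and both passed it (-0.89 and -0.86) without DMSO replicate 2, the lowest of the DMSO samples for both. EEF1B2 measured 871.1, 758.3 and 843.2 FPKM in the DMSO samples and 469.1, 460.6 and 453.5 FPKM under BCT. EEF1E1, a scaffold protein of the tRNA synthetase complex that shares the name, was at 37.2 ± 0.022 and 39.9 ± 2.02 FPKM and did not pass the FDR (0.10, adjusted p = 0.099 from limma). Of the 6 eEF1 genes, 4 were lower with BCT without overlap between the groups and 2, EEF1A2 and EEF1E1, were higher without overlap, where 44.3% and 41% of all tested genes were so.

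Translocation was represented by EEF2, which measured 1332, 1179 and 1279 FPKM in the DMSO samples and 723.1, 766.2 and 699.7 FPKM under BCT. The groups did not overlap, and its log2 fold change of -0.79 (standard error 0.063) passed the FDR but not the fold threshold. Genes for 2 enzymes that modify eEF2 were called lower. EEF2K, the kinase that inactivates eEF2 by phosphorylation, measured 9.68, 10.4 and 9.65 FPKM in the DMSO samples and 5.87, 4.23 and 4.66 FPKM under BCT, which put it at -1.01. EEF2KMT, a lysine methyltransferase of eEF2, went from 18.3 ± 0.195 to 9.98 ± 1.63 FPKM (SD, n = 3 each), at -0.88. Its call was lost without BCT replicate 2 (-0.82) or BCT replicate 3 (-0.81). In 12 of the 15 called members, EEF2K and EEF2KMT among them, BCT replicate 1 was the closest to the DMSO samples. The closest sample was not counted for other genes. Over all tested genes, 4420 were called without BCT replicate 1 and 4027 with all samples. EEF2KMT has exons that overlap those of ALG1 on the other strand, and ALG1 was at -0.71; the library kit does not mark strand.

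EIF5A encodes the protein that carries hypusine, a modified lysine that it needs to work on the ribosome. It measured 1140, 1082 and 1121 FPKM in the DMSO samples and 489.5, 429.8 and 409.8 FPKM under BCT. The mean fell 2.52-fold, with no overlap between the groups (-1.33 ± 0.071 (SE) on the log2 scale, limma adjusted p = 1.2e-06, Benjamini-Hochberg). In the order of levels, EIF5A was at rank 4 of all members in each DMSO sample and at rank 6 or 7 in the BCT samples. The gene lies on chromosome 17 of GRCh37, from 7210318 to 7215782, where its exons overlap those of GPS2 on the other strand. GPS2 moved the other way, from 35.8 ± 0.394 to 118.9 ± 12.7 FPKM (SD, n = 3 each). EIF5AL1, a close intronless copy of EIF5A on chromosome 10, averaged 2.21 ± 0.271 and then 0.942 ± 0.067 FPKM (SD, n = 3 each) and was called lower as well, at -1.14. Its value is uncertain, because reads of EIF5A can fit the copy.

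Many mRNAs of the elongation machinery carry a terminal oligopyrimidine (TOP) motif: they begin with a C followed directly by a run of C and T, and mTOR controls their translation through LARP1. Of 11 factors listed as TOP mRNAs from general knowledge, 3 were called lower (EEF1A1, EEF1G and EIF4B) and 0 higher by limma (2 were higher at an unadjusted p below 0.05), and 8 passed the FDR as lower and 2 as higher. The 3 are 27.3% of the list, against 31.6% of all tested genes called and 17.8% called lower. At the FDR alone, 42.8% of all tested genes were lower and 39.3% higher. Their median log2 fold change was -0.79, and it was 0.19 for the 48 tested members not on the list. EIF3F was at -0.66, while EIF3H (-0.15), EIF3E (-0.10), EEF1A2 (0.23) and EIF3A (0.36) were closer to 0. After rescaling to the same FPKM sum the median of the TOP factors was -0.022, again below the median of all genes, which was 0.72 there.

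The annotated starts of the genes were read as well. RefSeq promoter entries (GRCh38.p14, 250 bases before the start and 50 after) were found for 55 of the 67 members. A start was called TOP-like when its first base was C and at least the first 5 bases were C or T. A gene with several entries was counted when any of its starts was TOP-like, and its start with the longest run is shown. Such starts were found in 12 members, or 21.8%, and in 7.40% of the 9455 tested genes with an entry. Counted by entry and not by gene, they were 4.07% of all 35116 entries. Shown first are the 6 with the lowest fold changes, with the run of pyrimidines in capitals after 5 bases of upstream sequence.

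EEF1A1, chr6:73521008-73521037, minus strand: acgttCTTTTTCgcaacgggtttgccgcca
EIF2S3, chrX:24054951-24054980, plus strand: ccttcCTCTTTTggcaacatggcgggcgga
EIF4B, chr12:53006451-53006480, plus strand: cgggtCTTTTgcgttctctttccctctccc
EEF1B2, chr2:206159890-206159919, plus strand: cgggtCCTTTTTCCTCTCTTCagcgtgggg
EEF2, chr19:3985439-3985468, minus strand: gcgttCTCTTCCgccgtcgtcgccgccatc
EIF3F, chr11:7987332-7987361, plus strand: gcctcCTTCTTTCTCgacaagatggccaca

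Their log2 fold changes ran from -1.39 for EEF1A1 to -0.66 for EIF3F, and the run of C and T was 5 to 16 bases long. The other 6 members with such a start were EIF3K (-0.24), EIF2A (-0.07), EIF3D (0.12), EIF3M (0.15), EIF2D (0.22) and EIF4A2 (1.14), of which the last 4 are shown for comparison with EIF1 and EIF2B2, whose starts do not begin with a run of this kind.

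EIF3D, chr22:36529142-36529171, minus strand: gtttcCTCTTTTCCTggtttctcaagagtg
EIF3M, chr11:32583826-32583855, plus strand: gttccCTTTTCCggtcggcgtggtcttgcg
EIF2D, chr1:206612441-206612470, minus strand: cgggcCCTTTTCgcggccgggccccagcat
EIF4A2, chr3:186783572-186783601, plus strand: gctgtCTTTTCagtcgggcgctgagtggtt
EIF1, chr17:41688880-41688909, plus strand: cctctgccccagtcactgagccgccgccga
EIF2B2, chr14:75002916-75002945, plus strand: gccccggaagtgcaaactgtgtggtctggc

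The 12 members with a TOP-like start had a median log2 fold change of -0.45, and the 37 tested members with an entry but no such start had a median of 0.24. Over all genes the medians were -0.24 for the 700 tested genes with a TOP-like start and -0.02 for the 8755 without. The letters at the start did not sort the members by direction, since EIF4A2, with a run of 6 bases, was called higher. They also did not bear out the whole TOP list. EEF1G, called lower, had an entry without a TOP-like start, and EEF1A2, EEF1D, EIF3A, EIF3E and EIF3H had no entry. The E-box CACGTG, read on both strands, was present in the entries of 13 of the 55 members, or 23.6%, and of 12.8% of the tested genes. Of the 7 members called lower that had an entry, 2 held it (EEF2K and EIF4B), as did 1 of the 6 called higher (EIF1B). TGATGNAA, read on both strands, was found in 1 member, EIF4E3, and in 2.49% of the tested genes.

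**Figure D2:**
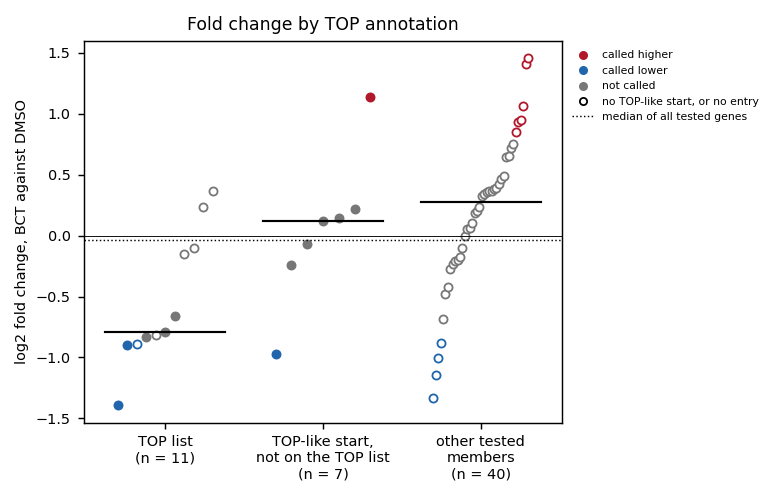
Log2 fold change (BCT against DMSO) of 58 tested factors, split into the TOP list, other members with a TOP-like annotated start and the rest. Each point is 1 gene, filled where any annotated start is TOP-like and open where none is or where no entry was found. The bars are medians (-0.79, 0.12 and 0.28). Genes on the TOP list reach from -1.39 to 0.36, and both other groups hold genes called in either direction.

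Of the 5 tested factors of start codon recognition, 3 were called higher (EIF1, EIF1B and EIF5), and EIF1AX was lower at the FDR alone. The 3 are 60% of this small group, against 13.9% of all tested genes called higher and 31.6% called. At the FDR alone, 42.8% of all tested genes were lower. EIF1, which keeps the scanning ribosome from settling on a wrong start codon, measured 534.4, 501.6 and 510.8 FPKM in the DMSO samples and 1035, 1121 and 1088 FPKM under BCT. All BCT samples were above all DMSO samples. The rise was 1.07 ± 0.053 (SE) on the log2 scale, with a limma adjusted p of 9.7e-07 (Benjamini-Hochberg). EIF1 moved from rank 7 of the members in every DMSO sample to rank 3 in BCT replicate 1 and rank 2 in the other BCT samples. The ratio of EIF1 to EIF5A was 0.463 ± 0.00675 with DMSO and 2.46 ± 0.301 with BCT (SD, n = 3 each), so their order was turned. The gene lies on chromosome 17 of GRCh37 from 39845137 to 39848920. Its paralog EIF1B measured 40.1, 36.8 and 38.6 FPKM in the DMSO samples and 68.6, 76.0 and 78.6 FPKM under BCT, at 0.95 on the log2 scale.

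EIF5, which makes eIF2 hydrolyze its GTP and competes with eIF1, rose with them. It measured 47.5, 48.2 and 45.7 FPKM in the DMSO samples and 78.7, 88.5 and 88.6 FPKM under BCT. The log2 fold change of 0.852 is at the threshold, and the call was lost without DMSO replicate 3 (0.83), BCT replicate 2 (0.82) or BCT replicate 3 (0.82), although the groups did not overlap. Of the others, EIF1AX, which works beside eIF1 on the same subunit, was at -0.28 and EIF1AD, a nuclear relative of it, at 0.19; both passed the FDR alone. The Y-linked EIF1AY was tested and not called, and its values are not described.

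The genes of eIF2 and of its exchange factor eIF2B did not move as units. The eIF2 complex has the subunits α (EIF2S1, the target of the stress kinases), β (EIF2S2) and γ (EIF2S3, which binds GTP and the initiator tRNA). EIF2S3 measured 55.2, 52.1 and 54.7 FPKM in the DMSO samples and 27.0, 27.3 and 28.2 FPKM under BCT. The groups lay far apart with little spread in either, and it fell by 0.97 ± 0.048 (SE) on the log2 scale (limma adjusted p = 9.9e-07, Benjamini-Hochberg). EIF2S1 and EIF2S2 were at 0.49 and 0.37 and passed the FDR alone. EIF2S1 measured 41.4, 39.9 and 37.3 FPKM in the DMSO samples and 53.1, 58.0 and 55.7 FPKM under BCT. The ratio of EIF2S3 to the mean of the other two was 0.823 ± 0.033 with DMSO and 0.317 ± 0.013 with BCT (SD, n = 3 each). EIF2S3 lies on chromosome X of GRCh37 from 24073063 to 24096927.

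The eIF2B complex recharges eIF2 with GTP, with a catalytic part (γ, EIF2B3, and ε, EIF2B5) and a regulatory part (α, EIF2B1, β, EIF2B2, and δ, EIF2B4) that senses phosphorylated eIF2. EIF2B4 measured between 23.9 and 25 FPKM in the DMSO samples and 63.9, 72.6 and 65.3 FPKM under BCT. EIF2B2 measured 32.0, 32.4 and 29.8 FPKM in the DMSO samples and 76.1, 90.8 and 84.1 FPKM under BCT. These were the largest rises among the tested members, 2.76-fold and 2.66-fold, with log2 fold changes of 1.46 (standard error 0.060) and 1.41 (standard error 0.072). The catalytic subunits EIF2B5 (0.72) and EIF2B3 (0.64) were higher without overlap and passed the FDR, but not the fold threshold. EIF2B1 was the exception, with a mean of 68.7 FPKM with DMSO and 59.4 FPKM with BCT (-0.21 ± 0.046, SE). With DMSO it was the most abundant of the 5 and stood 3.61 ± 0.088 times above the lowest, and with BCT the highest stood 2.80 ± 0.114 times above the lowest. EIF2B4 lies on chromosome 2 from 27587219 to 27593205 and EIF2B2 on chromosome 14 from 75469624 to 75479069 (GRCh37).

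Of the alternative carriers of the initiator tRNA, EIF2A was at -0.07 and did not pass the FDR, and EIF2D, which also acts in recycling, was at 0.22 and passed the FDR alone.

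**Figure D3:**
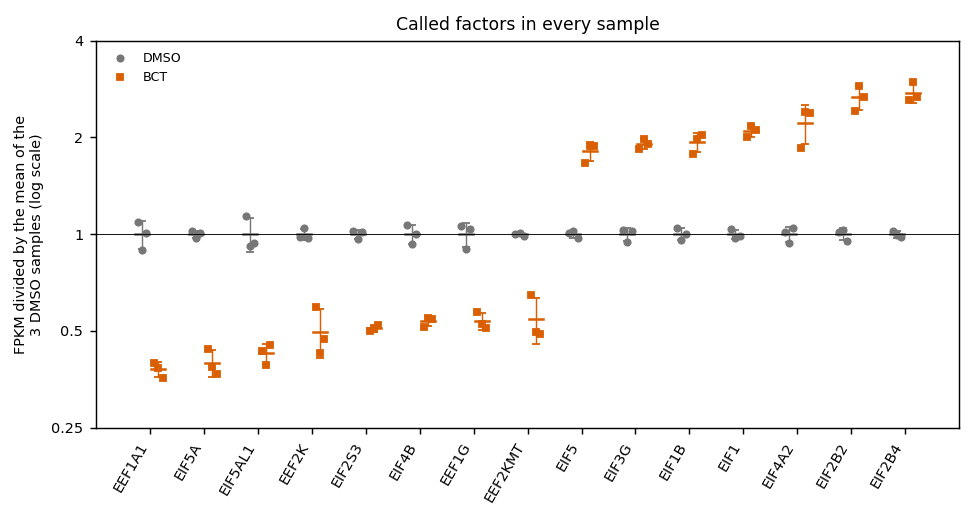
FPKM of the 15 called factors in every sample, divided by the mean of the 3 DMSO samples of the same gene, on a log scale. Points are single samples, with horizontal bars for the group means and whiskers for 1 SD. The groups lie apart in all 15 genes, as in 85.3% of all tested genes. The 15 were called on these same samples, so their separation is no separate evidence. BCT replicate 1 is the BCT sample nearest to the DMSO samples in 12 of the 15.

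eIF3 is the scaffold on which the initiation complex is built, and its tested subunits ranged from -0.68 (EIF3L) to 0.93 (EIF3G), with a median of -0.02. EIF3G, an RNA-binding subunit, was the only one of the 12 that was called, or 8.33%, against 31.6% of all tested genes. It measured 173.6, 159.7 and 173.2 FPKM in the DMSO samples and 310.2, 333.8 and 322.1 FPKM under BCT, a 1.91-fold rise. EIF3L and EIF3F were lower without overlap at -0.68 and -0.66, and EIF3K (-0.24), EIF3B (-0.23) and EIF3H (-0.15) also passed the FDR as lower. EIF3J (0.38), EIF3A (0.36), EIF3M (0.15) and EIF3D (0.12) passed it as higher, while EIF3E and EIF3I did not pass it. EIF3A, the largest subunit, averaged 83.1 ± 6.36 FPKM with DMSO and 106.9 ± 6.39 FPKM with BCT (SD, n = 3 each). EIF3C and its near-identical copy EIF3CL were not tested. In the DMSO samples EIF3C was listed at 1.02, 1.15 and 0 FPKM and EIF3CL at 0, 0.001 and 0.979 FPKM, in the same order. The values swapped between the copies within a group, and their sum was 1.05 ± 0.090 FPKM with DMSO and 1.43 ± 0.180 FPKM with BCT (SD, n = 3 each). EIF3J, the lowest of the other subunits, averaged 51.5 FPKM with DMSO, and the listed level of EIF3C is uncertain because reads that match both copies may have been left out or split.

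Of the 12 tested eIF4 genes, 1 was called lower and 1 higher, and at the FDR alone 3 were lower and 5 higher. This is 16.7% called, against 31.6% of all tested genes, and 66.7% passing the FDR, against 82.1%. EIF4B, an RNA-binding cofactor of the eIF4A helicase, measured 415.0, 363.3 and 391.2 FPKM in the DMSO samples and 200.6, 214.0 and 212.3 FPKM under BCT, and fell by 0.90 ± 0.061 (SE) on the log2 scale. EIF4A2 measured 114.5, 105.6 and 117.5 FPKM in the DMSO samples and 208.6, 269.8 and 268.3 FPKM under BCT. It rose 2.21-fold (log2 fold change 1.14, standard error 0.10), although BCT replicate 1 stood below the other BCT samples. EIF4A2 has exons that overlap those of RFC4 on the other strand, and RFC4 went from 64.2 ± 0.956 to 31.7 ± 0.968 FPKM. Its more abundant paralog EIF4A1 was at -0.20 and passed the FDR alone, as did EIF4A3 (-0.48), the related helicase of the exon junction complex. EIF4H, which acts like EIF4B, was at -0.10 and did not pass it.

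The cap-binding protein EIF4E was at 35.9 ± 1.31 FPKM with DMSO and 47.0 ± 3.36 FPKM with BCT, at 0.39. Its relative EIF4E2, which represses bound mRNAs, was at 61.2 ± 0.742 and 61.2 ± 2.72 FPKM (SD, n = 3 each), with a log2 fold change of -0.00 and a 95% interval from -0.12 to 0.11. EIF4G1, the main scaffold, was at 0.05 with an interval from -0.10 to 0.20. EIF4G2, a scaffold that does not bind eIF4E, measured 260.2, 266.4 and 250.4 FPKM in the DMSO samples and 404.5, 409.9 and 408.8 FPKM under BCT. At 0.65 it passed the FDR with a wide gap between the groups, short of the fold threshold. EIF4G3 (0.36) and EIF4ENIF1 (0.34), an eIF4E transport protein, passed the FDR alone, and EIF4E3 was at 0.24 and did not.

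EIF6, which holds the large subunit back until it is ready to join, measured 145.1, 138.9 and 146.3 FPKM in the DMSO samples and 239.6, 252.5 and 231.8 FPKM under BCT. Its log2 fold change of 0.75 passed the FDR but not the fold threshold, and EIF5B, the GTPase of subunit joining, was at 0.36. Termination uses ETF1, which reads the stop codon, and GSPT1, its GTPase, and ABCE1 then splits the ribosome. ETF1 was at 0.42, ABCE1 at 0.20 and GSPT1 at -0.17, so 0 of these 3 were called by limma. All 3 passed the FDR and an unadjusted p below 0.05. Of all tested genes, 31.6% were called and 82.1% passed the FDR alone. EEFSEC, which delivers selenocysteine, was at 0.32. EIF3J-AS1, the only antisense gene tested, was at -0.42.

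For 8 pairs of related factors, most of them paralogs, the ratio of their levels was compared between the groups. With 3 samples against 3, the two-sided exact permutation test cannot give a p below 0.1. The ratio did not overlap between the groups in 7 pairs, each with p = 0.1 from that exact test (0.114 adjusted over the 8 pairs). Single genes did not overlap in 85.3% of all those tested, and no such share was computed for other pairs of genes. EEF1A2, the eEF1A form of muscle and neurons, measured 97.7, 103.5 and 107.7 FPKM in the DMSO samples and 109.5, 136.1 and 118.3 FPKM under BCT. Its share of the summed eEF1A level went from 1.92% ± 0.245 to 5.69% ± 0.684 (SD, n = 3 each), while that sum went from 5408 ± 533 to 2137 ± 109 FPKM. EIF4A2 made up 12.2% ± 0.766 of the summed eIF4A1 and eIF4A2 level with DMSO and 26.1% ± 3.65 with BCT. There the sum itself was 922.6 ± 25.4 FPKM with DMSO and 954.6 ± 6.08 FPKM with BCT.

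EIF5A2 remained a minor form, at 0.0987% ± 0.00646 of the pair with DMSO and 0.352% ± 0.033 with BCT. EIF1B was 6.95% ± 0.095 of the sum with EIF1 and then 6.43% ± 0.267, so the pair rose nearly together. EIF4E2 went from 63.1% ± 1.02 to 56.6% ± 1.49 of the sum with EIF4E. The log2 ratio of EIF4G3 to EIF4G1 was higher by 0.31 with BCT. For EIF1AX and EIF1, which differ in kind but act side by side, the share of EIF1 went from 91.2% ± 0.152 to 96.3% ± 0.147. Only the ratio of EIF4E3 to EIF4E overlapped between the groups (exact permutation p = 0.2, two-sided).

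**Figure D4:**
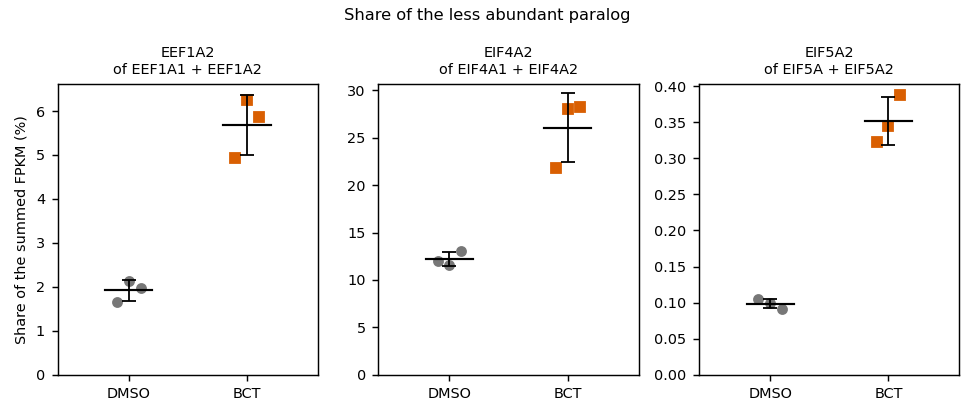
Share of EEF1A2, EIF4A2 and EIF5A2 in the summed FPKM of each paralog pair, in percent, with 3 DMSO and 3 BCT samples. Points are samples, lines are means and whiskers 1 SD; each axis starts at 0 and has its own scale. In all 3 pairs the BCT samples lie above the DMSO samples.

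Regulators of the factors, listed from general knowledge, showed 6 genes called lower and 3 called higher among 31 tested. The 9 are 29.0% of those, against 31.6% of all tested genes called. With equal FPKM sums 2 of the 31 were called lower and 15 higher, where 49.4% of all tested genes were called (668 lower, 5614 higher). The eIF4E-binding proteins, which keep eIF4E from its scaffold, were all called lower. EIF4EBP1 fell from 108.6 ± 3.84 to 28.9 ± 6.79 FPKM (SD, n = 3 each; -1.93), EIF4EBP3 was at -1.42 and EIF4EBP2 at -0.99. PDCD4, an inhibitor of the eIF4A helicase, had the largest fall of the list, from 22.5 ± 1.08 to 4.54 ± 1.04 FPKM (-2.31). PABPC1, the main poly(A)-binding protein and itself a TOP mRNA, fell from 397.2 ± 5.97 to 179.8 ± 4.43 FPKM (-1.14), and PAIP2B, an inhibitor of it, was at -1.39. PPP1R15A and PPP1R15B, which bring a phosphatase to eIF2α, rose by 3.46 and 1.31 on the log2 scale, and HBS1L, a GTPase that rescues stalled ribosomes, rose by 0.99.

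Mitochondria use their own set of factors. Of 11, all tested, 3 were called lower and 2 higher, or 45.5%, against 17.8% lower, 13.9% higher and 31.6% in all over the tested genes. With equal FPKM sums 0 were called lower by limma and 4 higher, where 49.4% of all tested genes were called (668 lower, 5614 higher). At an unadjusted p below 0.05 there, 2 of the 11 were lower (GFM2 and TSFM). The elongation factors TUFM (249.5 ± 1.07 to 131.9 ± 6.49 FPKM, -0.92) and TSFM (-1.26) fell, as did GFM2 (-1.33), which acts in recycling. The release factor genes MTRF1L (9.97 ± 0.323 to 28.8 ± 3.24 FPKM, 1.52) and MTRF1 (0.92) rose, the latter not called without DMSO replicate 1. The initiation factors MTIF2 and MTIF3 were at 0.33 and -0.05.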

How the data were processed

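Total RNA of 6 samples of 22RV1 cells was sequenced as paired reads of 100 bases after unstranded library preparation. According to the methods and the submitters' processing notes, the authors used Trimmomatic, HISAT2 on hg19/GRCh37 and StringTie. The notes also list CASAVA and HTSeq, and the annotation is not given in the sources used here. Each sample's file holds deposited FPKM values per gene symbol, made by the authors, with no counts. The start and end listed in the files often cover several genes (28 members share theirs), so positions come from GENCODE on GRCh37. Start sequences come from RefSeq (GRCh38.p14) and were matched by symbol.

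Samples were grouped by the agent in the labels. limma 3.58.1 under R 4.3.3 (moderated variances that follow the mean) was run on log2(FPKM + 0.1) for the 12729 genes whose mean reached 1 FPKM. Calls needed an FDR below 0.05, with Benjamini-Hochberg adjustment over all genes tested, together with a log2 fold change past 0.85 in either direction. The steps were tested on simulated data. Paralog ratios were tested with SciPy 1.17.1. Members and lists were chosen with earlier results of these data known. The genes named by rule were all called members, the most abundant member and both ends of each role group, the paralog pairs and the called genes of the other lists; other members complete a complex and were picked with their values in view. GCN1L1, on the list of regulators, was not analysed here. A further luminal marker is not reported here. Alternatives covered pseudocounts of 1 and 0.01, no filter or a mean of 5 FPKM, 4 scalings, the variance trend, an FDR of 0.01, treat, the replicate block and each sample left out.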

Additional observations from a re-analysis of the deposited data

Results flagged for a closer look

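GSPT2, a paralog of GSPT1 that can also act in termination, was too low to be tested. The DMSO samples held 0.215, 0.085 and 0.149 FPKM and the BCT samples 0.93, 1.12 and 1.41 FPKM, a mean of 1.15 ± 0.244 FPKM against 0.15 ± 0.065 FPKM (SD, n = 3 each). Every BCT sample was above the DMSO samples, and without the filter limma gave a log2 fold change of 2.34 (adjusted p = 0.0019 with Benjamini-Hochberg adjustment). GSPT1 was at -0.17.

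The antisense gene EIF1B-AS1, also below the filter, was at 0.061 ± 0.015 FPKM with DMSO and at 0.187 ± 0.013 FPKM with BCT (SD, n = 3 each), and here too the groups did not overlap. EIF1B, the gene it is named after, rose, and the libraries do not mark strand. EIF2B5-AS1, a further antisense gene below the filter, went the other way. It fell from 0.0697 ± 0.00493 FPKM with DMSO (SD, n = 3) to 0 FPKM in every BCT sample. Of all tested genes, 41% were higher and 44.3% lower without overlap.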

How the results depend on the processing

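Over 18 alternatives, 1041 results for 58 factors were recomputed: 935 kept their direction and side of the thresholds, 38 lost a call, 32 gained 1 and 36 turned direction. None of the 15 called members turned direction under the alternatives in which it was tested; EIF5AL1 was not tested at a mean of 5 FPKM.

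Rescaling to the same FPKM sum gave 31 called factors (0 lower, 31 higher) and a median of 0.89 over the factors and -0.022 for the TOP factors, with 17 other translation control genes called (2 lower, 15 higher) and 0 lower and 4 higher mitochondrial ones. Of all tested genes, 49.4% were called there (668 lower, 5614 higher), against 52.5% of the factors. The median of all genes was 0.72 there, and that of the factors relative to all genes was 0.17, against 0.16 as deposited. Without MIR6087 in the sum, 2 factors were called lower (EEF1A1 and EIF5A) and 12 higher, with medians of 0.51 for the factors and -0.40 for the TOP factors against 0.34 for all genes, and 9 control genes were called higher. Called there were 23.7% of the factors and 36% of all tested genes (1208 lower, 3370 higher). Median ratio scaling gave a median of 0.16 for the factors. Quantile normalization gave 4 factors called lower and 9 higher, or 22% of the factors, against 30.7% of all tested genes. The medians there were 0.29 for the factors and -0.20 for the TOP factors. There EEF1A1 (-0.66), EIF5A (-0.76), EIF4B (-0.53) and EEF1G (-0.20) lost their calls; the cause was not tested. With treat, 5 factors were called (2 lower, 3 higher) and 3 mitochondrial genes, 1 of them higher. The 5 are 8.47% of the factors, against 19.1% of all tested genes. A pseudocount of 1 and a mean of at least 5 FPKM each left 1 mitochondrial gene called higher.

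The factors that turned direction were not called as deposited and lay between -0.68 and -0.00 there. With equal sums these were EIF1AX (0.49), EIF2A (0.70), EIF2B1 (0.56), EIF3B (0.54), EIF3E (0.67), EIF3F (0.11), EIF3H (0.61), EIF3J-AS1 (0.34), EIF3K (0.53), EIF3L (0.085), EIF4A1 (0.57), EIF4A3 (0.29), EIF4E2 (0.77), EIF4H (0.67) and GSPT1 (0.59). Without MIR6087 they were EIF1AX (0.11), EIF2A (0.32), EIF2B1 (0.18), EIF3B (0.16), EIF3E (0.29), EIF3H (0.23), EIF3K (0.15), EIF4A1 (0.19), EIF4E2 (0.39), EIF4H (0.28) and GSPT1 (0.21). With quantile normalization they were EIF3B (0.047), EIF3E (0.26), EIF3H (0.17), EIF3K (0.099), EIF4A1 (0.38), EIF4E2 (0.15) and EIF4H (0.27). EIF4E2 was at 0.036 with median ratio scaling, and between -0.029 and 0.034 with single samples left out (0.0087 without DMSO replicate 3).

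With each sample left out in turn, 13 to 17 factors were called (7 to 10 lower, 6 to 7 higher). That is 22% to 28.8% of the factors, against 30.1% to 34.7% of all tested genes. The medians were 0.11 to 0.14 for the factors and -0.84 to -0.75 for the TOP factors. There were 9 to 11 control genes called (6 to 7 lower, 3 to 4 higher) and 4 to 5 mitochondrial ones (3 lower, 1 to 2 higher; 1 without DMSO replicate 1). Whether same-numbered samples share more than a number is not known. Their deviations from the group means correlated at 0.12, 0.033 and 0.034, and those of differently numbered samples at -0.12 to 0.074. With 3 samples per group such values cannot decide whether they were paired. With the replicate number as a block, 15 factors were called (8 lower, 7 higher) with a median of 0.12, and no other call changed. The files hold no counts, so no scaling could be set against read numbers.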
